A study of Bos taurus with 170 samples.

Results

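Blastomeres of bovine embryos on Day 2 after in vitro fertilisation, labelled as the 8-cell stage, are described here on their own. They were taken as all cells that the labels place on Day 2 and that held 2000 or more unique molecular identifiers (UMI), short random tags by which PCR copies of 1 mRNA molecule are counted once. This gave 43 of the 161 cells of the series that passed the same minimum, from 6 embryos with 6, 9, 7, 7, 8 and 6 cells (Day2-E1 to Day2-E6). The other 4 of the 47 Day 2 cells held 52 to 1501 UMI. The labels give 9 blastomeres for Day2-E2 and for Day2-E3. The comparison group is 118 blastomeres of 8 Day 3 embryos, labelled as the 16-cell stage. Embryos of both days were untreated and made in the same way: oocytes from slaughterhouse ovaries were matured in vitro, fertilised with thawed sperm and cultured in synthetic oviductal fluid with serum, and the zona pellucida was removed with pronase before the cells were separated. The embryos were chosen for cleavage timing close to that of embryos that become blastocysts, so they are a selected set. The embryo was taken as the replicate.

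The early embryo lives on RNA and protein that the oocyte stored. In cattle the major activation of the embryonic genome falls around the 8- to 16-cell stage, and many maternal transcripts are removed over the same time. The first cleavages run without growth of the embryo, and the store includes regulators of mitosis and proteins of the spindle. The cells of 1 embryo divide the cytoplasm of 1 oocyte between them, and differences between siblings at this stage are studied as possible early signs of cell fate.

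Depth ranged from 2666 to 362668 UMI per cell (median 76074), a 136-fold span, and cells within an embryo differed by between 4.72-fold in Day2-E3 and 89.5-fold in Day2-E4. Between 1419 and 8308 genes had a UMI in a cell, in close order with depth. ERCC spike-ins, synthetic RNAs added in equal amount to every well, rose and fell with the gene UMI: within embryos the 2 totals had a Spearman rho of 0.99 over the 43 cells. Cells held 51.4 to 151 gene UMI per spike-in UMI (median 69.6). Every one of the 47 barcodes of Day 2 cells also labelled a Day 3 cell. No barcode was used for 2 Day 2 cells. Day2-E1 to Day2-E4 stood on the plate labelled p3 and Day2-E5 and Day2-E6 on p2. Of the Day 3 embryos, Day3-E1 to Day3-E4 stood on p1, Day3-E5 and Day3-E6 on p3, and Day3-E7 and Day3-E8 on p2.

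**Figure D1:**
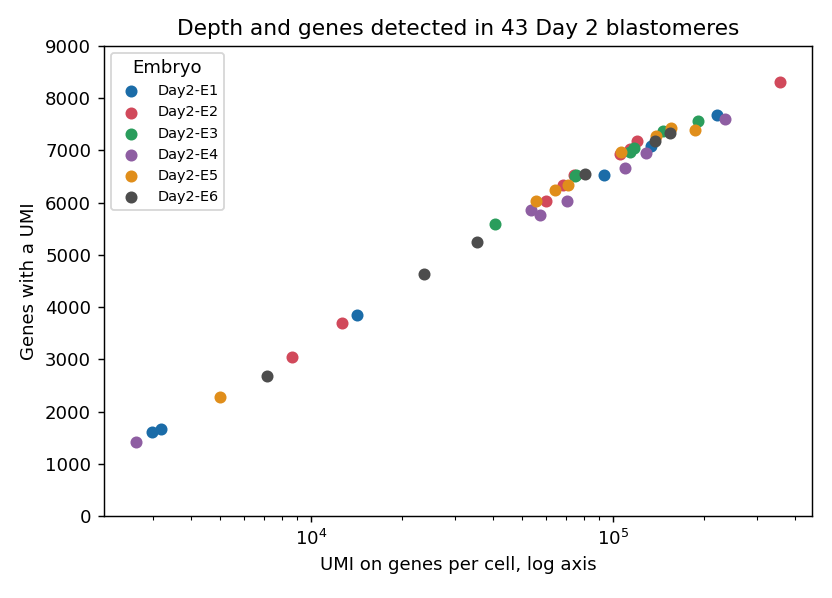
Genes with a UMI (vertical axis) against UMI on genes (horizontal log axis) in each of the 43 Day 2 blastomeres, coloured by embryo. The cells of all 6 embryos lie along 1 curve from 1419 to 8308 genes.

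The Day 2 blastomere held 1 mRNA far above all others. AURKA, the mitotic kinase of centrosomes and spindle poles, took 20428 ± 909 UMI per 1000000 UMI on genes (CPM; mean ± SD, n = 6 embryos), or 2.04% ± 0.0909 of the captured mRNA. This was 3.71 times the level of the next gene. A molecule counts once whatever its length, so CPM of different genes were compared without a length correction. AURKA stood at 20530, 20934, 20236, 19811, 19219 and 21839 CPM in Day2-E1 to Day2-E6. No embryo lay far from the others, and AURKA was the most abundant gene in 36 of the 43 cells. TMSB4X, which encodes the actin-binding peptide thymosin beta 4, was the most abundant gene in the other 7.

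Several of the next genes have known roles in cell division, a grouping made after their levels were seen. TACC3, which stabilises spindle microtubules and is a substrate of the AURKA kinase, had 5064 ± 1138 CPM. PRC1, which bundles the microtubules of the central spindle, had 4595 ± 162 CPM. CENPF, a kinetochore protein, had 3925 ± 597 CPM, and CDCA8, a subunit of the chromosomal passenger complex, had 3664 ± 305 CPM. CKS1B, a binding partner of cyclin-dependent kinases, had 3121 ± 685 CPM and NUSAP1, a microtubule-binding protein of the spindle, had 2803 ± 163 CPM.

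The remaining 13 of the 20 most abundant genes had several roles. TMSB4X had 5503 ± 1577 CPM. RGS2, a regulator of G protein signalling, had 4817 ± 382 CPM. OOSP1, an oocyte secreted protein, had 3246 ± 725 CPM, and DPPA3, a maternal factor that protects DNA methylation in the zygote, had 2764 ± 364 CPM. The others were HMGN2, a nucleosome-binding protein, PAIP1, which binds the poly(A)-binding protein, the chaperone HSP90AA1, the dynein subunit DYNC1I2, the membrane linker EZR, LEO1 of the PAF1 transcription elongation complex, ANKRD17, ZC2HC1A and LOC100336984, between 2750 and 3617 CPM.

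The 20 genes together were a small share of the mRNA and nearly the same genes in every embryo. The 20 most abundant genes of each embryo held 9.0% ± 0.516 of its UMI (8.52% to 9.93%), and 15 of the 20 named genes were among the leading 20 in all 6 embryos. Levels ranged widely over embryos for few of them. LOC100336984, an uncharacterised locus, stood at 2058, 2910, 2971, 2227, 1631 and 4703 CPM in Day2-E1 to Day2-E6. TACC3 stood at 4373, 4108, 4605 and 4288 CPM in the embryos of plate p3. It stood at 6266 and 6746 CPM in those of plate p2, without overlap. By the paper's times, both p2 embryos were collected at, or within minutes of, their last recorded cleavage. All p3 embryos were collected more than an hour after theirs. Plate and time since cleavage therefore cannot be told apart in any comparison of p2 with p3 embryos, and their parts were not tested. In a test of plate p2 against p3 over the embryos, TACC3 did not pass the threshold (adjusted p = 0.0639, edgeR), and 1 of 6160 genes did (0.01623%). TACC3 did pass without TMM scaling (adjusted p = 0.0236), without a filter on low counts (0.00358), by DESeq2 (0.00583) and without Day2-E5 (0.0288). The 1 gene that passed the main plate test, named after its values were seen, was AMDHD1, an enzyme of histidine breakdown. AMDHD1 stood at 59.8 to 71.2 CPM on p3 and at 212 and 125 CPM on p2. At an unadjusted p under 0.05, 289 genes (4.69%) differed.

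**Figure D2:**
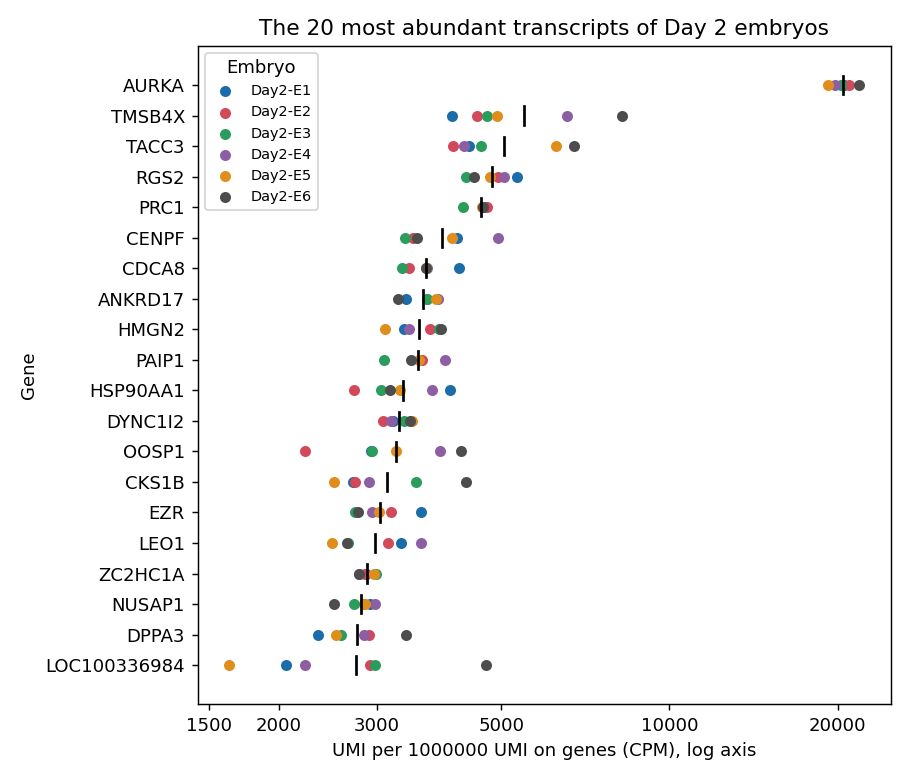
Level of the 20 most abundant transcripts in each of the 6 Day 2 embryos (points, horizontal log axis in CPM) with the mean over embryos (black bar). AURKA lies near 20428 CPM in all 6 embryos and the other genes below 8214 CPM, with wide spread for LOC100336984 and TMSB4X.

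Most genes known from the oocyte that had an entry in the table were present in every embryo. All 5 zona pellucida and oocyte secreted factors with an entry in the table (BMP15 and GPR3 had none) had a UMI in all 6 embryos. ZP4 and ZP2, proteins of the egg coat, had 1190 ± 89.4 and 1164 ± 124 CPM, GDF9, an oocyte growth factor, had 1042 ± 134 CPM, and KIT, the receptor of stem cell factor, had 424 ± 32.5 CPM. Summed, the list held 3953 to 4186 CPM per embryo. Of 25 maternal effect and oocyte-restricted genes 15 had no entry, and 9 of the other 10 had a UMI in all 6 embryos. These 10 held 9174 to 11021 CPM, led by DPPA3, KPNA7 (an importin alpha of oocytes, 2183 ± 316 CPM), NPM2 (the oocyte nucleoplasmin, 1278 ± 114 CPM) and ZAR1L (1157 ± 138 CPM). Of the germ cell list 7 of 14 genes had an entry, led by SYCP3 of meiotic chromosome axes (781 ± 94.3 CPM), MAEL of the piRNA pathway (264 ± 57.4 CPM) and DAZL, an RNA-binding protein of germ cells (140 ± 59.8 CPM). DAZL ranged from 62.0 to 244 CPM over embryos.

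These oocyte lists were set against Day 3 with edgeR on UMI summed per embryo, in which 21.18% of the 5274 genes tested were higher and 11.28% were lower on Day 3. Of the 5 zona and secreted factors 3 were lower on Day 3 and 0 higher (median log2 fold change -0.53, all genes -0.04). GDF9 was lower by a log2 fold change of -0.97 (SE 0.311, adjusted p = 0.025, edgeR), and ZP4 did not pass (-0.26, adjusted p = 0.356, edgeR). Of the 9 maternal effect genes tested 4 were lower and 0 higher, among them NPM2 (-0.85, adjusted p = 0.0303, edgeR), and DPPA3 did not pass (0.48, adjusted p = 0.0701, edgeR). GDF9 lost its call without Day2-E2 (adjusted p = 0.0503, edgeR), and NPM2 lost it without Day2-E2, Day3-E4 or Day3-E7 (up to 0.0544). Library pools are not given in the labels and were inferred from barcodes that recur between embryos. A shared barcode shows only that 2 embryos were in different pools. The inference assumed 2 pools in all, with every Day 2 embryo in the first. On this assumption Day3-E1 and Day3-E2 also fall in the first set, and the last 5 Day 3 embryos form a second. Day3-E3 could not be placed, and day and inferred pool overlap. With Day3-E1 and Day3-E2 as the only Day 3 embryos, 0 of 5 zona and secreted factors and 1 of 9 maternal effect genes were lower. Of 6193 genes in all, 327 were higher and 24 lower. Day3-E1 and Day3-E2 stood on plate p1, where no Day 2 embryo stood. Day and plate therefore cannot be told apart in any comparison with the first-set embryos.

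Genes for protein synthesis stood lower on Day 2 than on Day 3 by the same test. Of 78 cytosolic ribosomal protein genes all had a UMI on Day 2, and their sum was 16994 to 21456 CPM per embryo, against 21698 to 73278 CPM on Day 3, so the ranges did not overlap. Of 74 tested, 63 were higher on Day 3 and 0 lower (median log2 fold change 1.58), and 30 of 76 were higher and 0 lower against the first-set embryos. RPSA, the laminin-binding ribosomal protein, had 1121 ± 137 CPM on Day 2 and 2583 CPM on Day 3 (log2 fold change 1.49, SE 0.189, adjusted p = 5.93e-05, edgeR). Reads of ribosomal protein genes can also map to their processed pseudogenes, so single values are uncertain. Translation factors were led by EIF4A1, an RNA helicase of initiation (1342 ± 94.1 CPM), and EIF1, which guards start codon choice (1335 ± 136 CPM), and 12 of 19 were higher and 1 lower on Day 3 (6 and 2 without TMM scaling). Against the first-set embryos 4 of 19 translation factors were higher and 0 lower.

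Most histone genes tested were higher on Day 3 where all Day 3 embryos were used. Histone genes summed to 1897 to 2604 CPM on Day 2 and 2278 to 11895 CPM on Day 3, with 7 of 10 tested higher on Day 3 and 0 lower (median log2 fold change 1.27). Against the first-set embryos 2 of 11 were higher and 0 lower. H3F3B, which encodes the replacement histone H3.3, stood at 1000 ± 202 CPM on Day 2 and 1920 CPM on Day 3 (adjusted p = 0.0025, edgeR). The protocol primes on poly(A) tails, so replication-dependent histone mRNAs, which lack them, are captured poorly. TMSB10, the paralogue of TMSB4X, had 614 ± 70.3 CPM on Day 2 and 4358 CPM on Day 3 (log2 fold change 3.24, SE 0.527, adjusted p = 0.000353, edgeR), whereas TMSB4X did not pass (0.65, SE 0.336, adjusted p = 0.142). Copies of both thymosin genes in the genome could take part of their reads.

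Other lists had members that moved in either direction. Among all 5274 genes tested, 21.18% passed as higher on Day 3 and 11.28% as lower. When TMM was left out, 890 of these genes rose and 981 fell, so list counts in that setting follow a shift of all genes. Whether any list departs from the all-gene shares was not tested. Mitotic regulators summed to 39102 to 43864 CPM on Day 2 and 32676 to 42727 CPM on Day 3, with 10 of 26 tested higher and 5 lower. CENPF, NUSAP1 and, outside this list, OOSP1 were among the lower genes, at log2 fold changes of -0.95 (SE 0.215), -1.01 (SE 0.318) and -1.24 (SE 0.369), and AURKA did not pass (-0.03, adjusted p = 0.906, edgeR). Against the first-set embryos OOSP1 passed (adjusted p = 0.0182) and CENPF (0.174) and NUSAP1 (0.256) did not, and 0 mitotic regulators were lower. Of chaperones, led by HSP90AA1 (3341 ± 486 CPM), HSP90AB1 (1406 ± 126 CPM) and the HSP70 cochaperone DNAJA1 (1068 ± 218 CPM), 5 of 26 were higher and 5 lower (2 and 8 without TMM scaling). Nuclear subunits of oxidative phosphorylation, led by ATP5J (678 ± 73.7 CPM), had 12 of 58 higher and 8 lower (9 and 12 without TMM scaling), and proteasome and ubiquitin genes, led by PSMA5 (879 ± 130 CPM), had 7 of 31 higher and 4 lower (6 and 9 without TMM scaling). The actin and tubulin list had 5 of 18 higher and 1 lower (4 and 3 without TMM scaling), and of the germ cell list 1 of 4 was higher and 0 lower. No entry of the table matched a mitochondrially encoded gene.

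Transcription factors of the later lineages were mostly low on Day 2. SALL4, a zinc finger factor of pluripotent cells, was the only pluripotency factor above 100 CPM. Its levels were 677, 790.1, 773, 609, 770.5 and 656 CPM in Day2-E1 to Day2-E6. Next came SOX2 (96.3 ± 19.6 CPM), KLF4 (90.2 ± 11 CPM) and POU5F1 (38.7 ± 13 CPM), with a UMI in 36, 40 and 32 of the 43 cells. TFCP2L1 had no UMI, and KLF17, LIN28B, TDGF1, ESRRB, DPPA5, ZFP42, MYCN and UTF1 had no entry. KLF4 ranged from 68.5 to 99.8 CPM over Day 2 embryos and from 207 to 2340 CPM over Day 3 embryos, without overlap (log2 fold change 4.33, SE 0.497, also past the threshold against the first-set embryos with adjusted p = 0.0033, edgeR). In all 4 of 6 pluripotency factors tested were higher on Day 3 and 0 lower, and against the first-set embryos 1 of 6 was higher and 0 lower.

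Of trophectoderm markers GATA2, a zinc finger factor, led with 235 ± 34.2 CPM, followed by FOSL1, an AP-1 subunit, GATA3 (37.1 ± 13 CPM) and TFAP2C (25.2 ± 5.31 CPM). ASCL2 had no UMI. TEAD4, ELF3, KRT8, KRT18, IFNT, IFNT2 and DLX3 had no entry. TFAP2C, an AP-2 factor of the trophectoderm, stood at 18.5 to 31.9 CPM on Day 2 and 43.3 to 994 CPM on Day 3 (log2 fold change 5.01, SE 0.604, first-set embryos adjusted p = 0.0074, edgeR). It was the 1 of 5 tested that was higher, and FOSL1 was the 1 that was lower. Of primitive endoderm markers COL4A1 led with 8.50 ± 6.75 CPM, and PDGFRA, a growth factor receptor, had 4.57 ± 3.83 CPM on Day 2 and 89.9 CPM on Day 3 and was the only one tested. GATA4 and FOXA1 had a UMI in 5 and 2 of 43 cells. SOX17 had none, and GATA6, HNF4A, FOXA2, SOX7, LAMA1 and COL4A2 had no entry.

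The genes given as markers of these cells were present in nearly all of them. SALL4, FOSL1, MYF5 and COG2 had a UMI in 41, 40, 41 and 39 of 43 cells. MYF5, a myogenic factor, stood at 581, 508, 501, 508, 541 and 442 CPM, a narrow range over embryos. COG2, a subunit of the Golgi tethering complex, stood at 212, 155, 186, 179.6, 180.5 and 262 CPM, and FOSL1 at 44.1 to 67.4 CPM. Against Day 3, COG2 (log2 fold change -1.94, adjusted p = 0.0041), MYF5 (-1.35, adjusted p = 0.038) and FOSL1 (-0.88, adjusted p = 0.0467) were lower and SALL4 was higher (0.55, adjusted p = 0.0306), all by edgeR. Against the first-set embryos, COG2 passed (adjusted p = 0.0454) and MYF5 (0.461), FOSL1 (0.198) and SALL4 (0.15) did not. These calls rested on single embryos for 3 of the 4 genes. With 1 embryo left out in turn, COG2 kept its call in 14 of 14 fits. SALL4 kept it in 6, losing it without any 1 of the Day 2 embryos, Day3-E6 or Day3-E8 (adjusted p up to 0.0869, edgeR). MYF5 kept it in 3, those without Day3-E1, Day3-E3 or Day3-E5 (otherwise up to 0.0661), and FOSL1 in 3, those without Day3-E1, Day3-E5 or Day3-E6 (otherwise up to 0.0971). SALL4 did not pass without TMM scaling (adjusted p = 0.24) or without a filter on low counts (0.105), nor FOSL1 without the filter (0.0578).

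Of the markers of other cell types with an entry, 2 of 7 for muscle, 2 of 8 for blood and liver, 1 of 14 for cumulus and granulosa cells, 1 of 5 for sperm and 0 of 7 for nerve cells had no UMI. The skeletal and heart muscle list was carried by MYF5: MYF6 had 16 ± 5.6 CPM, MYOD1 and CKM had no UMI, and MYOG, MYH7, TNNT2, TNNC1, TTN and PAX7 had no entry. HBB and ALB, which mark red blood cells and liver, had no UMI, and the blood and liver list summed to 18.2 to 42.4 CPM. Cumulus and granulosa cells surround the oocyte before fertilisation. Their list summed to 684 to 846 CPM, from STAR of steroid synthesis (260 ± 44.3 CPM, in 43 of 43 cells), HAS2, a hyaluronan synthase (254 ± 38.5 CPM), and SERPINE2 (141 ± 22.2 CPM). INHA, a defining granulosa marker, had no UMI. AMHR2, FSHR, LHCGR and CYP19A1 had no entry. NEFL, a neurofilament, had 655 ± 222 CPM and TUBB3 135 ± 21.0 CPM. Sperm markers summed to 45.6 to 83.7 CPM, led by ODF2, which somatic centrosomes also carry (60.9 ± 15.9 CPM), with ODF1 at 0. Of immediate early and stress genes DDIT3 (586 ± 29.6 CPM) and GADD45A (277 ± 50.6 CPM) led, and 4 of 6 were higher and 1 lower on Day 3.

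Of the 10772 genes in the table, 559 had no UMI in the 43 cells. The 43 cells held 4.02e+06 UMI on genes, so 0 UMI allows a level of up to 0.746 CPM (3 UMI, for counting error only). The table holds only genes seen in the series, and each of the 559 had a UMI on Day 3. Most were rare there too, with a median of 0.599 CPM on Day 3, and 29 reached 5 CPM. The 10 with the highest Day 3 level were TDH, a mitochondrial threonine dehydrogenase (28 CPM on Day 3), GSTA2, a glutathione transferase (18 CPM), the protocadherin PCDH10 (17 CPM), LTA4H of leukotriene synthesis (15 CPM), the cannabinoid receptor CNR2 (15 CPM), the endothelin-converting enzyme ECE2 (14 CPM), GCHFR, which regulates GTP cyclohydrolase (12 CPM), the keratin KRT24 (11 CPM), CPNE8, a copine (11 CPM), and the sulfotransferase SULT1A1 (11 CPM). TDH was at 0 in Day3-E1 and Day3-E3 and at 90.1 CPM in Day3-E8. At the other end, 348 genes had a UMI in all 43 cells, 2103 in all 37 cells with 10000 or more UMI on genes, and 7437 in all 6 embryos. All 2353 genes of 100 CPM or more were present in every embryo.

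Variation between sibling blastomeres was measured for these 2353 genes. The UMI of each cell were compared with those expected if the cells of an embryo shared 1 composition and differed only in depth. The sum of squared deviations over the expected UMI, divided by its degrees of freedom, averages 1 where siblings differ by counting error alone. The median ratio was 1.64, and 1400 genes (59.5%) exceeded counting error by the chi-square test with Benjamini-Hochberg adjustment under 0.05. The coefficient of variation (CV) left after counting error was removed had a mean over the embryos' medians of 0.116 ± 0.0188 (0.0965 in Day2-E1 to 0.139 in Day2-E5). Pooled over embryos the median was 0.144, with 0.0471 and 0.238 as the 10th and 90th percentiles.

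The share of genes past the test was larger for more abundant genes. It was 44.0% at 100 to 200 CPM, 62.5% at 200 to 400 CPM, 83.1% at 400 to 800 CPM, 95.2% at 800 to 1600 CPM and 100% of 42 genes above that, with a median CV between 0.125 and 0.156 in each of these ranges. Where each cell was thinned to 10000 UMI, 90 genes (3.82%) passed and the mean of the embryos' median CV was 0.0351. Pooled over embryos the median CV at this depth was 0.169, above the 0.144 of unthinned cells. The 2 summaries thus moved in opposite directions.

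The spike-ins carried the same kind of excess. Treated in the same way against each cell's own spike-in total, 21 of 59 spike-ins with 100 or more UMI exceeded counting error (35.6%). Among features of 100 to 1000 UMI, 49 spike-ins had a median CV of 0.159 and 1374 genes 0.153. Among those of 1000 UMI or more, 10 spike-ins had a median CV of 0.0967 and ratio of 2.27, and 979 genes 0.137 and 2.05. Spike-ins went into every well in the same amount, so a CV of this size is also seen in RNA that does not differ between cells. The highest CV among the 10 abundant spike-ins was 0.37. Genes above it included TMSB4X (0.401), CROT (0.382) and, named after its value was seen, RANBP2, a nucleoporin (0.372). Among all 59 spike-ins the highest CV was 1.24.

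**Figure D3:**
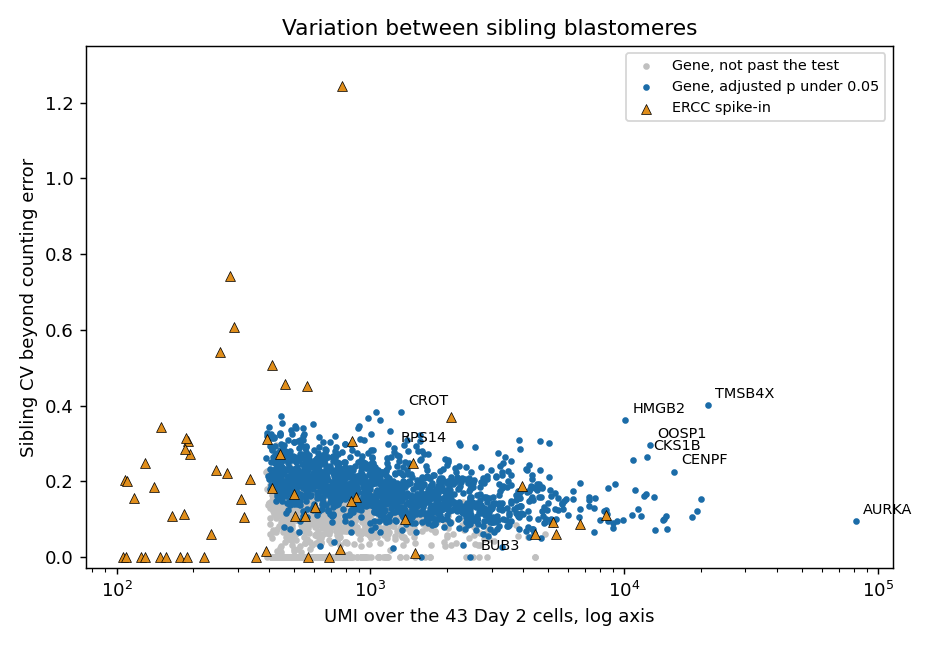
CV between sibling blastomeres beyond counting error (vertical axis) against the UMI of the gene or spike-in summed over the 43 Day 2 cells (horizontal log axis). Genes past the chi-square test (blue) lie mostly below 0.3, the ERCC spike-ins (triangles) of 1000 or more UMI reach 0.37 and rarer ones 1.24, and TMSB4X and HMGB2 stand above the other genes of over 10000 UMI.

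TMSB4X had the largest CV of the genes tested where cells were scaled by their UMI on genes. Scaled by TMM sizes its CV was 0.383 and that of HMGB2 0.405. With DESeq2 size factors the values were 0.374 for TMSB4X, 0.433 for HMGB2 and 0.412 for ASRGL1. Among the cells with 10000 or more UMI on genes TMSB4X ranged from 2415 to 15300 CPM in Day2-E1, from 2570 to 11938 in Day2-E2, from 3013 to 10997 in Day2-E3, from 3796 to 13457 in Day2-E4, from 2827 to 11681 in Day2-E5 and from 1479 to 16189 in Day2-E6. Siblings thus differed by 3.5- to 11-fold in each embryo. The ratio to counting error was 143 over all 43 cells, the shallow ones included. The CV was 0.508, 0.419, 0.401, 0.435, 0.408 and 0.282 in Day2-E1 to Day2-E6.

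HMGB2, a DNA-bending chromatin protein with high levels in dividing cells, had a mean of 2551 ± 700 CPM and a CV of 0.36 (ratio 25.6). Its lowest and highest siblings stood at 1053 and 4663 CPM in Day2-E1, 791 and 3951 in Day2-E2, 972 and 3086 in Day2-E3, 1197 and 2822 in Day2-E4, 827 and 2210 in Day2-E5 and 1318 and 3223 in Day2-E6.

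AURKA kept within narrow bounds in the same cells. Its lowest and highest siblings with 10000 or more UMI differed by 1.33- to 1.58-fold, from 14879 to 24107 CPM over all embryos, and its CV of 0.0946 was below that of the median gene. Because AURKA was counted 81825 times, it still exceeded counting error (ratio 25.0).

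A ratio above 1 in every embryo was seen for 452 of the 1400 genes, and the 15 of these with the largest CV were TMSB4X, CROT, HIST2H2AC, HMGB2, NFKBIA, MED21, ASRGL1, HIST1H1D, RPS14, MCUB, RPL27, PPP1R2, USP22, SLC39A10 and CDK5RAP2, with CV from 0.317 to 0.401. CROT, a peroxisomal carnitine transferase (327 ± 58.5 CPM), ranged from 84.5 to 540 CPM over the cells of 10000 or more UMI. The chromatin proteins HIST2H2AC, a histone H2A (275 ± 34.9 CPM, CV 0.361), and HIST1H1D, a linker histone (238 ± 99.4 CPM, CV 0.341), are in this group with HMGB2. NFKBIA, the inhibitor of NF-kappa-B (118 ± 30.7 CPM), had 0 UMI in at least 1 cell of over 10000 UMI. MED21, a Mediator subunit (236 ± 65.3 CPM), had a CV of 0.347. The ribosomal protein genes RPS14 (CV 0.333) and RPL27 (CV 0.325) had 299 ± 57.9 and 257 ± 56.0 CPM. At 100 to 400 CPM, such a gene has only a few UMI in a shallow cell. ASRGL1, an asparaginase, fell from a CV of 0.342 to 0.214 and lost its call without Day2-E2 (adjusted p = 0.0559, chi-square test with Benjamini-Hochberg adjustment).

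The 5 genes of 500 CPM or more with the lowest ratio, of 385 such genes, were BUB3, ANKRD13A, SF3A3, SWAP70 and PLEKHG1 (0.887 to 0.981). BUB3, a spindle checkpoint protein, had 620 ± 61.0 CPM, and its siblings differed by at most 1.66-fold in any embryo among cells of 10000 or more UMI. No variation beyond counting error was detectable for BUB3 at 2541 UMI. SF3A3, a splicing factor subunit at 1110 ± 83.9 CPM, did not pass either. SF3A3, SWAP70 and PLEKHG1 did pass where cells were scaled by TMM sizes (CV 0.0753, 0.0772 and 0.0739).

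By list, genes for the ribosome and for respiration had a larger median CV between siblings than all genes tested, and mitotic and oocyte secreted genes a smaller one. Of 49 ribosomal protein genes tested 44 passed, with a median CV of 0.2, and of 23 respiratory subunits 21 passed, with 0.212, beside 59.5% and 0.144 over all genes. Of histone genes 4 of 5 passed (median CV 0.283), of proteasome and ubiquitin genes 16 of 20 (0.188), of cytoskeletal genes 12 of 15 (0.163), of chaperones 18 of 23 (0.159) and of maternal effect genes 8 of 9 (0.161). Translation factors had 10 of 15 (0.132), mitotic regulators 14 of 23 (0.12), and zona and oocyte secreted factors 4 of 5 (0.1). These counts were given as descriptions, since a list of abundant genes passes more often. The summed ribosomal protein level ran from 12801 to 29147 CPM over the 37 cells of 10000 or more UMI.

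Some of these genes moved together within embryos. Over the 37 cells with 10000 or more UMI, taken as deviations from the mean of their embryo, TMSB4X followed the summed ribosomal protein level (Spearman rho 0.80, Pearson r 0.81), the respiratory subunits (0.72 and 0.68), CKS1B (0.60 and 0.52) and DYNLL1, a dynein light chain (0.57 and 0.55). HMGB2 followed its paralogue HMGB3 (0.83 and 0.88) and ran against TMSB4X (-0.46 and -0.51). SALL4 also ran against TMSB4X (-0.45 and -0.54). AURKA and TMSB4X were nearly unrelated (-0.04 and -0.21). The cells share embryos, libraries and the constraint that CPM sum to a constant, so these values are descriptions only. Depth moved with them: HMGB2 and SALL4 were higher in deeper siblings (rho 0.59 and 0.62) and TMSB4X lower (-0.34).

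The shallow cells stood apart in composition. Of the 8 cells with fewer than 15000 UMI on genes, 7 had more than 10000 CPM of TMSB4X (11938 to 24380), as did 5 of the 35 deeper cells. The median was 16988 CPM in the 8 cells and 4688 CPM in the 35. AURKA had a median of 12292 CPM in the 8 shallow cells and 20179 CPM in the others, HMGB2 1127 and 2141 CPM, CKS1B 1134 and 3164 CPM, and SALL4 339 and 741 CPM. One shallow cell did not share this: blastomere 8 of Day2-E5, with 4996 UMI on genes, had 2402 CPM of TMSB4X and 24019 CPM of AURKA. Shallow cells carry little weight in the CV, where deeper cells count more, but they can add much to the ratio to counting error. With only the cells of 40000 or more UMI, the CV of TMSB4X was 0.383 and that of HMGB2 0.345. Whether depth and composition share a source was not tested.

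**Figure D4:**
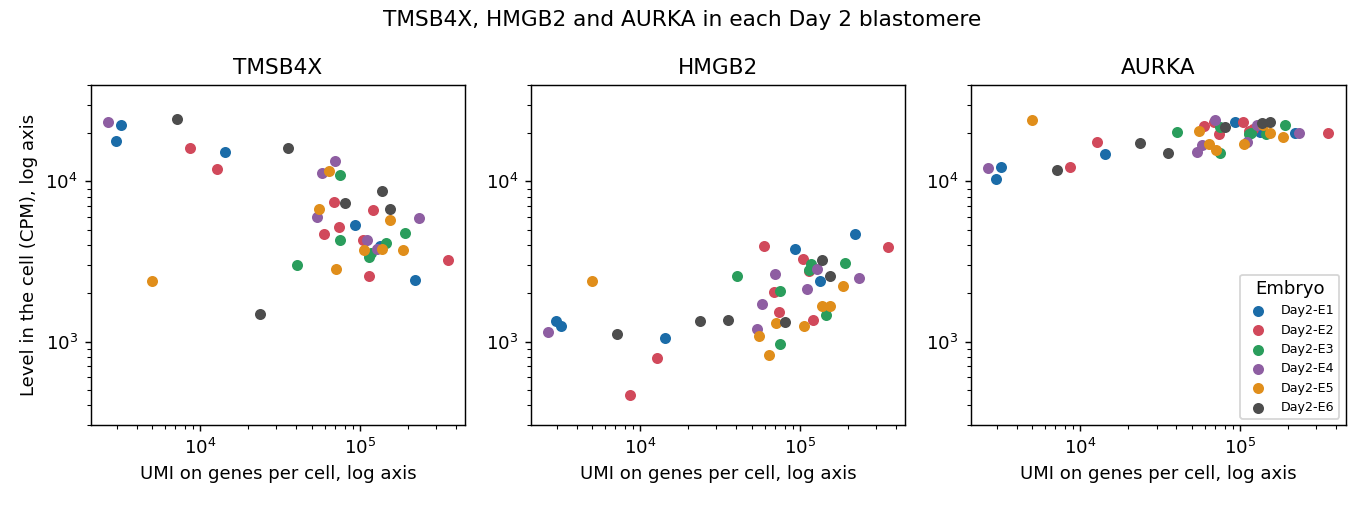
Level of TMSB4X, HMGB2 and AURKA in each of the 43 Day 2 blastomeres (vertical log axis, CPM) against the UMI on genes of the cell (horizontal log axis), coloured by embryo. TMSB4X spans 1479 to 24380 CPM and lies above 10000 CPM in 7 of the 8 cells with fewer than 15000 UMI, and AURKA stays between 10375 and 24107 CPM.

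Single blastomeres differed in how far they stood from their siblings over all genes. The mean squared standardised deviation over the genes tested was above 1 in all 43 cells, with a median of 2.00. It exceeded 3 in 4 cells, which were blastomere 4 of Day2-E3 (4.12), blastomere 1 of Day2-E4 (3.71) and blastomeres 1 and 5 of Day2-E5 (3.6 and 3.4), and was at most 2.73 in the others. This value rises with a cell's depth for the same relative difference from its siblings. It covered 589 genes in the shallowest cell and 2353 in most cells, so cells of unlike depth cannot be ranked by it. Blastomere 4 of Day2-E3 held 10997 CPM of TMSB4X where its siblings held 3013 to 4727 CPM, 972 CPM of HMGB2 where they held 1467 to 3086 CPM, and 26666 CPM of ribosomal protein mRNA where they held 16209 to 20517 CPM. Blastomere 5 of Day2-E5 had the same order, with 11681 CPM of TMSB4X, 827 CPM of HMGB2 and 29147 CPM of ribosomal protein mRNA. Blastomere 1 of Day2-E5 did not, with 3729 CPM of TMSB4X, 2210 CPM of HMGB2 and 15248 CPM of ribosomal protein mRNA. Blastomere 1 of Day2-E4 had 6022 CPM of TMSB4X, within the range of its siblings, and 1197 CPM of HMGB2. Without these 4 cells, 1148 of 2359 genes (48.7%) passed. Blastomere 1 of Day2-E6 had the lowest TMSB4X of the 43 cells, with 1479 CPM, beside 1352 CPM of HMGB2, 13181 CPM of TACC3 and 0 of 23671 UMI for DYNLL1, and had 107 gene UMI per spike-in UMI.

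With cells thinned to 10000 UMI, the median Spearman correlation over the 2353 genes was 0.513 for 101 pairs of cells of 1 embryo and 0.5 for 565 pairs from 2 embryos. Counting error at this depth lowers both values, pairs of cells are not independent, and no test was made. On sums per embryo the median CV between embryos beyond counting error was 0.0991. A sum averages over the cells of the embryo, so this value cannot be set against the CV between single cells.

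At equal depth Day 2 embryos had a lower median ratio of sibling variation to counting error than Day 3 embryos. Day 2 cells had more genes with a UMI. Each cell of 10000 or more UMI was thinned to 10000, which kept 37 Day 2 and 103 Day 3 cells and left out 6 and 15. Over 1874 genes of 100 CPM or more on both days, the median ratio of sibling variation to counting error was 1.07, 1.05, 0.974, 1.00, 1.00 and 0.979 in Day2-E1 to Day2-E6 and 1.08 to 1.41 in the 8 Day 3 embryos. The groups did not overlap (means 1.01 ± 0.0375 and 1.24 ± 0.12, SD over embryos). The exact permutation test over embryos gave p = 0.000666, the smallest two-sided value 6 against 8 embryos allow, adjusted to 0.000999 over 3 comparisons. By counting error alone the mean of the ratio is 1. Its median over genes lies below 1 and rises with the number of siblings. Day 2 embryos held 4 to 8 such cells and Day 3 embryos 11 to 14, which by itself lowers the Day 2 medians. The test therefore cannot show that Day 2 siblings were more alike, and a median near 1 does not mark counting error alone.

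Genes with a UMI per cell at 10000 UMI averaged 3351 ± 42.6 over Day 2 embryos (3272 to 3392) and 3126 ± 142 over Day 3 embryos (2886 to 3264), also without overlap (exact permutation p = 0.000666, adjusted 0.000999). Unthinned, the embryo means were 4735 to 6800 and 3832 to 5201 genes. The 100 most abundant genes of an embryo held 20.7% ± 0.688 of the UMI on Day 2 and 22.4% ± 1.3 on Day 3, and the ranges overlapped (exact permutation p = 0.00999, adjusted 0.00999).

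The inferred barcode set moved with these values. The Day 3 embryos of the first barcode set, Day3-E1 and Day3-E2, had ratios of 1.08 and 1.13 and 3264 and 3263 genes per cell, next to the Day 2 embryos, and the 5 of the second set had ratios of 1.26 to 1.41. Day3-E3, whose set could not be settled, had a ratio of 1.1 and 3257 genes per cell. With the first-set embryos alone the differences were 0.0876 for the ratio and -87.7 genes (both exact permutation, adjusted p = 0.107), a comparison of 6 with 2 embryos that cannot give a p below 0.0714. By the paper's times, the first-set embryos, Day3-E3 and Day3-E4 were collected earliest on Day 3, and the other second-set embryos later. In the paper's clustering most cells of Day3-E1 and Day3-E2 fell in the cluster that held most Day 2 cells. The parts of pool, plate, collection time and developmental progress in these differences were not tested beyond this.

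**Figure D5:**
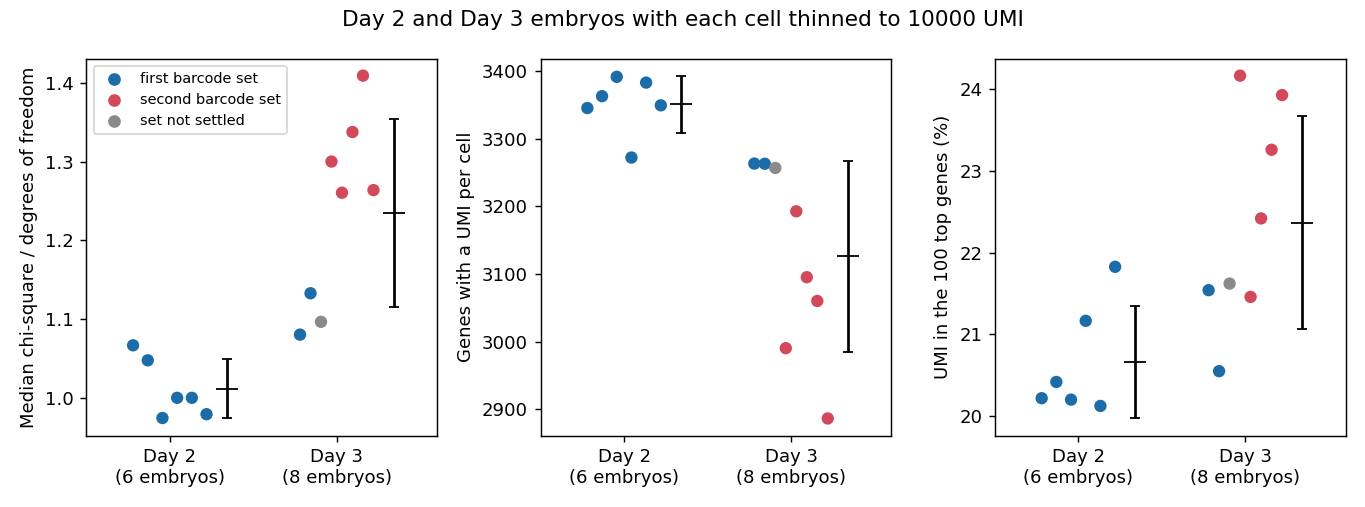
Median ratio of sibling variation to counting error, genes with a UMI per cell, and percent of UMI in the 100 most abundant genes for each embryo (points) with cells thinned to 10000 UMI, and mean ± SD (black). Colours give the barcode set. The 6 Day 2 embryos lie below all 8 Day 3 embryos in the first measure and above them in the second, and the second-set Day 3 embryos lie farthest away in the first measure. Day 2 embryos have fewer cells, which by itself lowers their first measure.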

How the data were processed

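Single blastomeres were sequenced by SCRB-Seq, which tags the 3′ end of poly(A) RNA with a cell barcode and a UMI. The authors mapped reads to the bosTau7 genome and the ERCC sequences with STAR 2.5.2b, built the UMI table with the Drop-seq pipeline and deposited whole-number UMI counts for 170 cells (10772 genes, 92 spike-ins). Every per-cell column was mapped to a sample. A second table, normalised by the authors, was not used.

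Cells with 2000 or more UMI were kept, and spike-ins were left out of gene values. UMI were summed per embryo and divided by the gene total (CPM). No doublet caller was used on the hand-transferred cells. Sibling variation was tested by chi-square on genes of 100 CPM or more, using cells with an expected UMI of 1 or more, and the CV beyond counting error was a moment estimate. Days and plates were compared with edgeR 4.0.16 (quasi-likelihood test, TMM, filterByExpr, Benjamini-Hochberg adjusted p under 0.05, SE from the F statistic) on embryo sums. DESeq2 1.42.0 served as an alternative. Per-embryo values were compared by two-sided exact permutation tests. Python 3.11.15, scipy 1.17.1 and R 4.3.3 were used, and the tests were checked on simulated data.

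Named genes were the 20 most abundant, the 15 with the largest CV among those called with a ratio above 1 in every embryo tested, the 5 steadiest of 500 CPM or more, the 4 given markers, up to 4 leading members and the undetected members of each list, and the 10 genes without a UMI that were highest on Day 3. Members and lists were chosen with earlier results of these data known. Cells of 1 embryo are not independent. Whether embryos came from separate oocyte donors is not given in the sources used here. P-values for days and plates measure the spread between these embryos. Those of the sibling chi-square test set cells against counting error within embryos and do not measure the spread between embryos.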

Additional observations from a re-analysis of the deposited data

Results flagged for a closer look

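The values of 73 groups of 6 or 8 embryos were searched for 1 embryo far from the others by Dixon's criterion, which chance meets in about 1 of 20 groups, and 3 were found. PRC1 stood at 4274 CPM in Day2-E3 and at 4615 to 4726 CPM in the other 5 Day 2 embryos. BUB3 stood at 504 CPM in Day2-E6 and at 616 to 680 CPM in the others. The blood and liver marker list summed to 42.4 CPM in Day2-E2 and to 18.2 to 26.9 CPM in the others.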

How the results depend on the processing

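The 1400 genes with sibling variation became 927 of 1245 tested at a minimum of 200 CPM, where fewer genes were tested, and 90 with cells thinned to 10000 UMI, where each cell held fewer counts. Under the other alternatives they stayed within 1.5 times, and leaving out 1 embryo gave 1229 to 1316. The mean of the embryos' median CV, 0.116, was 0.0351 with thinned cells and 0.172 by edgeR's tagwise dispersion. It was 0.112 to 0.119 with 1 embryo left out. The median CV pooled over embryos went the other way with thinned cells, from 0.144 to 0.169. The cause of these shifts was not tested. The settings without the 4 most deviant cells and with cells of 40000 or more UMI were chosen after seeing the data.

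With the first-set Day 3 embryos alone, the differences between days were 0.0876 in the ratio, -87.7 in genes per cell and 0.386 percentage points in the share of the 100 leading genes (adjusted p = 0.107, 0.107 and 0.429, exact permutation), and edgeR called 351 genes instead of 1712, with 2 Day 3 embryos in place of 8. All 3 measures kept their direction and call under the other thinning depths, another draw and each embryo left out.

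Of the calls between days 65.2% were higher on Day 3 with TMM, 47.6% without TMM (median log2 fold change of all genes -0.27) and 67.9% by DESeq2 (0.10). Plate p2 against p3 gave 1 gene with edgeR, 2 without TMM, 6 without a filter, 2 by DESeq2 and 0 to 5 with 1 embryo left out. It was 0 without Day2-E2 and 5 without Day2-E5. No paired analysis was possible because embryo numbers name different embryos on each day. Depth limits genes near 100 CPM, which have about 1 UMI in a cell of 10000.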
